A study of Homo sapiens with 12 samples.

Results

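The 10 genes described here code for integrin subunits that fibroblasts use to hold on to their matrix: ITGA1, ITGA2, ITGA3, ITGA4, ITGA5, ITGA11, ITGAV, ITGB1, ITGB3 and ITGB5. They were chosen as a list of symbols, and no measured value entered the rule, but earlier results of these data were known when they were chosen. They are 10 of the 38716 symbols in the tables, of which 16451 had at least 1 read in a coding sequence (CDS) in some library. Proliferating (Pro) and senescent (Sen) IMR90 cells, an established line of normal human fetal lung fibroblasts, were compared with 3 lysates per state. Sen cells had been passaged to replicative exhaustion, Pro cells had not, and lysates of both states were made in a buffer with cycloheximide, which holds ribosomes in place. Each lysate gave 1 Ribo-seq library and, from about 15% of it, 1 poly(A) RNA-seq library, so that there were 12 libraries in 4 groups. The labels name 2 isolates of the line without saying which lysate came from which, and the RNA-seq data of Pro cells carry a tag that resembles the solvent DMSO and that no label explains, so neither can be told apart from the state.

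Integrins are receptors of 1 alpha and 1 beta subunit that span the plasma membrane, bind matrix proteins outside the cell and connect through talin and kindlin to actin inside it. The alpha subunit mostly sets the ligand. ITGA1, ITGA2 and ITGA11 serve collagen receptors, ITGA3 laminin receptors, ITGA5 the classical fibronectin receptor, and ITGA4 a receptor of fibronectin and of the cell surface protein VCAM1. All of these pair with ITGB1 in fibroblasts, whereas ITGAV pairs with ITGB1, ITGB3 or ITGB5 and binds ligands that carry the RGD motif, among them vitronectin, fibronectin and latent TGF-beta.

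The mRNA level of a gene was its RNA-seq reads in the 5′ UTR, CDS and 3′ UTR, and its ribosome-protected fragments (RPF) were its Ribo-seq reads in the CDS. Both are given as CPM, counts per 1e6 scaled reads with TMM factors for library size, and errors are SD over 3 libraries. Translational efficiency (TE) is the ratio of RPF to mRNA in a lysate. The depth of RNA-seq was 7902427 to 14144455 such reads per library. In Ribo-seq, 4 libraries held 583798 to 1718521 CDS reads, but Pro 1 held 54421 and Sen 2 held 54708. In these 2 shallow libraries, 3 counts are worth 52.1 and 52.7 CPM, which limits every RPF value given for them. CDS reads made up 34.4%, 84.4% and 88.8% of all assigned footprints in Pro 1 to 3 and 77.8%, 15.0% and 54.7% in Sen 1 to 3, so that all Sen libraries were below Pro 2 and Pro 3. The part of this share in the RPF and TE changes was not tested. A gene was called changed at an adjusted p under 0.15 in edgeR's two-sided quasi-likelihood test across all genes, the false discovery rate of 15% that the study used. The labels describe independent replicas of the cultures, and the ratios between subunits given below carry no test, since they were chosen with their values known.

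Fibroblast markers, taken as a sum, were abundant in both states. All 12 listed markers were detected, and their summed mRNA level ranged from 30620 to 35060 CPM in Pro and from 27980 to 31540 CPM in Sen. COL1A1 and COL1A2 had the most reads, and S100A4 had 296 mRNA reads over all libraries. In mRNA, 4 of the 12 were called higher and 5 lower, with FBLN1 the lowest (log2 -1.53). In RPF, 1 of 11 tested was called higher and 5 lower, and the shares over all genes are given below. The 9 epithelial markers summed to 1.21 to 2.69 CPM in Pro and 1.91 to 2.38 CPM in Sen. The 8 endothelial markers summed to 64.3 to 70.2 CPM in Pro and 122 to 131 CPM in Sen, with TEK and EGFL7 the pair that passed the filter on low counts, and both were called higher in mRNA and RPF. The 10 leukocyte and platelet markers summed to 20.0 to 22.5 CPM in Pro and 33.7 to 36.7 CPM in Sen, with CD68 the gene that passed it, and 2 of them were at 0. Their part in the integrin values was not tested. Of the state markers, MKI67, a protein of dividing cells, fell by 2.30 on the log2 scale of mRNA (SE 0.08, edgeR adjusted p = 2.3e-16), and CDKN1A, an inhibitor of the cell cycle, rose by 1.60 (SE 0.07, adjusted p = 2.7e-14). In bulk lysates, fewer cells that carry a transcript and less of it per cell cannot be told apart.

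All 10 integrin genes were called higher in Sen mRNA, and 6 of them were called higher in RPF. The 4 others, ITGA1, ITGA4, ITGAV and ITGB1, had RPF changes from -0.11 to 0.21 on the log2 scale, none of which passed the test. Over all 12787 genes tested in mRNA, 73.6% were called, with 36.6% higher and 37.0% lower. Over the 7521 genes tested in RPF, 54.4% were called, with 27.5% higher and 26.9% lower. The median mRNA change of the 10 genes was 0.52 on the log2 scale, against -0.01 over all genes tested, and their median RPF change was 0.56, against 0.00. Every Sen library lay above every Pro library for all 10 genes in mRNA CPM, which held for 33.5% of all genes tested, and for 5 of 10 in RPF CPM, which held for 16.8%. All 10 passed the filter on low counts in each test. Without the shallow lysates Pro 1 and Sen 2, 10 were again called in mRNA and 6 in RPF.

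**Figure D1:**
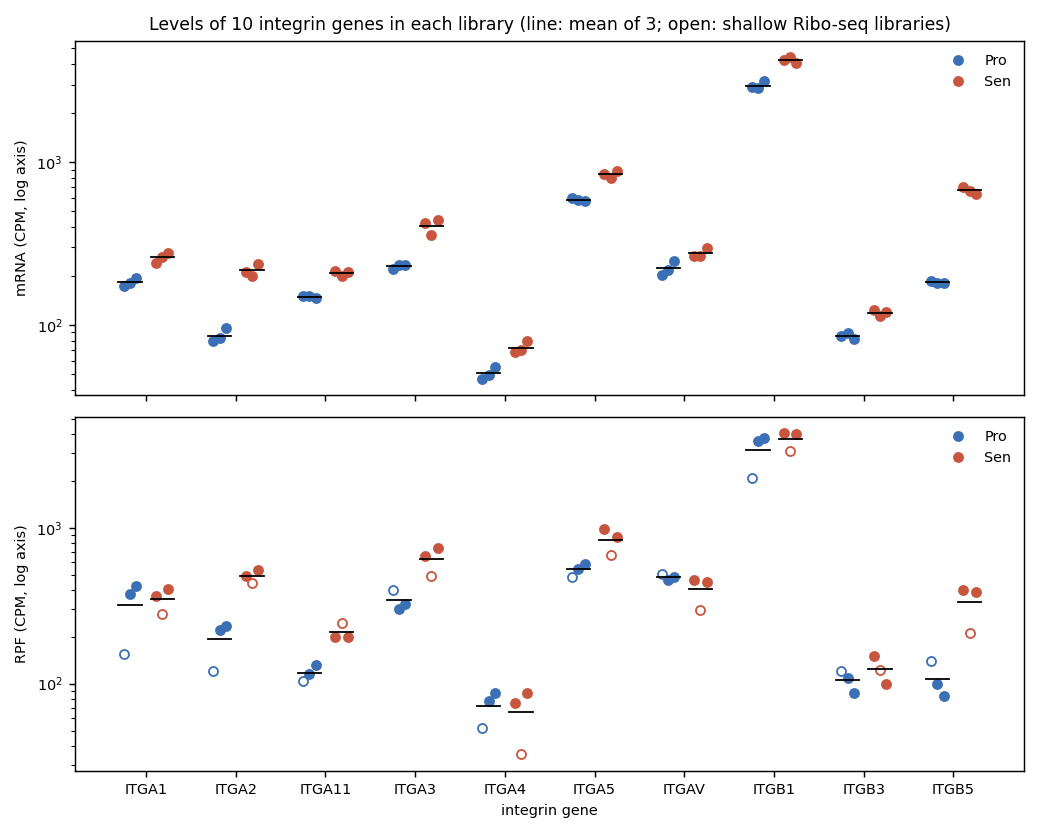
mRNA (top) and RPF (bottom) levels of the 10 integrin genes in CPM on log axes, 1 point per library, Pro in blue and Sen in red, with a line at the mean of 3. Open points are the shallow Ribo-seq libraries Pro 1 and Sen 2. In mRNA the red points of all 10 genes lie above the blue ones, and in RPF they do so for ITGA2, ITGA11, ITGA3, ITGA5 and ITGB5.

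The starts of 3 of these genes are shown for the reader to compare, since ITGB5 and ITGA2 had the highest mRNA changes of the 10 and ITGAV the lowest. Each line holds the 250 bases before the start of the principal transcript, 5′ to 3′ on the gene's strand, from RefSeq on GRCh38.p14, and capitals mark matches to the Sp1 motif GGGCGG on either strand. ITGB5 lies on the minus strand at chr3:124887366-124887615, ITGA2 on the plus strand at chr5:52989102-52989351, and ITGAV on the plus strand at chr2:186589806-186590055.
ITGB5: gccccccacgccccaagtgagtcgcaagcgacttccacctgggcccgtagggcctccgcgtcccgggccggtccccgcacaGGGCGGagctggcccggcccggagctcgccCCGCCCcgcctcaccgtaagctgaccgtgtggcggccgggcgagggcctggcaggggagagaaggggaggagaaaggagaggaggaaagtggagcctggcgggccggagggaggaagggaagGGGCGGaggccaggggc
ITGA2: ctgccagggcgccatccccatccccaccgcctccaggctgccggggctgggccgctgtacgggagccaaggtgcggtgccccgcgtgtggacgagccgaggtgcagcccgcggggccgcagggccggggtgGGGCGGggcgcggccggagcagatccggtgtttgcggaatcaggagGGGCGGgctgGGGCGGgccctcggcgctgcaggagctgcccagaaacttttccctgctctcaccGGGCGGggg
ITGAV: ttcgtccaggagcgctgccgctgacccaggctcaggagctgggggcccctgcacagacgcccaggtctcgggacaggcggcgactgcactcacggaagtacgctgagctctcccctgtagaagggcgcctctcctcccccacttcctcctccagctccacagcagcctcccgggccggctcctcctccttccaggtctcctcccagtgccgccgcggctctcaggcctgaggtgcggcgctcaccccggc
The ITGB5 window held 3 matches, the ITGA2 window 4 and the ITGAV window 0, and none of those marked overlapped another motif searched. Windows at the principal start were found for 8 of the 10 genes, not for ITGA3 and ITGB3. GGGCGG was in 4 of the 8 (ITGA2, ITGA5, ITGB1 and ITGB5) and in 42.6% of all 35116 windows of this table. The ITGB1 window held 3 matches and the ITGA5 window 1, with mRNA changes of 0.52 and 0.51 on the log2 scale. The windows of ITGA1, ITGA4 and ITGA11 held 0, with similar changes of 0.51, 0.52 and 0.48. A relation of matches to mRNA changes was not tested. The TEAD motif GGAATG was in 2 of the 8 (ITGA5 and ITGB1), against 11.9% of all windows. The AP-1 motif TGANTCA, the CCAAT box CCAAT and the TATA box TATAAA, searched on both strands, were in 0 of the 8, against 6.57%, 32.0% and 10.7% of all windows. The shares of all windows include starts other than the principal one, so the sets are not alike. Of the further windows of these genes, 1 of ITGB1 held 3 TATA box matches and 1 of ITGB5 held 2 GGGCGG matches. GC content was 75.2% in the ITGB5 window, 76.4% in the ITGA2 window and 70.8% in the ITGAV window. These matches describe letters, and binding was not measured.

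Of the collagen receptor subunits, ITGA2 changed most. ITGA2 (GRCh37 chr5:52285170-52390609, plus strand) had mRNA levels of 79.8, 83.0 and 95.3 CPM in Pro 1 to 3 and of 212, 200 and 237 CPM in Sen 1 to 3. Its RPF levels were 122, 223 and 233 CPM in Pro and 492, 440 and 535 CPM in Sen. Both layers were separate between the states, and Sen 2, although shallow, lay with the other Sen libraries. The RPF values of shallow Pro 1 and Sen 2 rest on 7 and 25 reads. The mRNA rose 2.51-fold (log2 1.33, SE 0.08, edgeR adjusted p = 5.8e-12) and the RPF 2.27-fold (log2 1.18, SE 0.16, adjusted p = 5.7e-09).

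ITGA1, the neighbour of ITGA2 on chromosome 5 (chr5:52083750-52255039, plus strand), codes for another collagen receptor subunit. Its mRNA levels were 173, 180 and 195 CPM in Pro and 242, 263 and 277 CPM in Sen. Its RPF levels were 156, 377 and 422 CPM in Pro and 363, 281 and 402 CPM in Sen. The mRNA values did not overlap, whereas the RPF values did, with the low Pro value in shallow Pro 1, where it rests on 9 reads. ITGA1 mRNA rose 1.42-fold (log2 0.51, SE 0.07, edgeR adjusted p = 3.2e-06). The RPF change was -0.03 on the log2 scale (SE 0.16, adjusted p = 0.90), with a 95% interval from -0.36 to 0.30. The gene PELO shares the start region of ITGA1 on the same strand, and how the authors' counting divided reads between overlapping genes is not given in the sources used here.

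ITGA11 (chr15:68588870-68724502, minus strand), a collagen receptor subunit typical of fibroblasts, had mRNA levels of 152, 151 and 147 CPM in Pro and of 215, 201 and 211 CPM in Sen. The RPF levels were 104, 116 and 131 CPM in Pro and 200, 246 and 200 CPM in Sen. The states were separate in both layers, but the RPF values of shallow Pro 1 and Sen 2 rest on 6 and 14 reads. The mRNA rose 1.40-fold (log2 0.48, SE 0.07, edgeR adjusted p = 2.1e-06) and the RPF 1.63-fold (log2 0.71, SE 0.17, adjusted p = 0.00044).

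ITGA3 (chr17:48133332-48167845, plus strand), the laminin receptor subunit, had mRNA levels of 221, 233 and 235 CPM in Pro and of 424, 359 and 439 CPM in Sen. In RPF it had 399, 303 and 326 CPM in Pro and 661, 492 and 737 CPM in Sen. Sen values were above Pro values throughout, and in RPF the shallow libraries came closest to each other. The mRNA rose 1.77-fold (log2 0.83, SE 0.08, edgeR adjusted p = 5.9e-09) and the RPF 2.07-fold (log2 1.05, SE 0.16, adjusted p = 1.9e-07).

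ITGA5 (chr12:54789045-54813050, minus strand), the alpha subunit of the fibronectin receptor, had mRNA levels of 605, 583 and 582 CPM in Pro and of 845, 796 and 883 CPM in Sen. In RPF it had 486, 548 and 590 CPM in Pro and 982, 668 and 867 CPM in Sen. The states did not overlap in either layer. The mRNA rose 1.43-fold (log2 0.51, SE 0.07, edgeR adjusted p = 1.6e-06) and the RPF 1.58-fold (log2 0.66, SE 0.16, adjusted p = 0.00069).

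ITGA4 (chr2:182321929-182403667, plus strand), which also takes part in binding VCAM1, was the lowest of the 10 in RNA-seq reads per coding length. Its mRNA levels were 46.9, 49.2 and 55.1 CPM in Pro and 67.9, 70.3 and 79.8 CPM in Sen. Its RPF levels were 52.1, 77.2 and 87.0 CPM in Pro and 75.0, 35.2 and 87.5 CPM in Sen. The mRNA values were separate and the RPF values overlapped, with the lowest value of each state in its shallow library, from 3 reads in Pro 1 and 2 reads in Sen 2. ITGA4 mRNA rose 1.44-fold (log2 0.52, SE 0.08, edgeR adjusted p = 1.2e-05). The RPF change was -0.09 on the log2 scale (SE 0.20, adjusted p = 0.74; 95% interval from -0.50 to 0.31). The gene CERKL overlaps its far end on the other strand.

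ITGAV (chr2:187454737-187545628, plus strand), the alpha subunit of the RGD receptors, had the lowest mRNA change of the 10. Its mRNA levels were 204, 217 and 247 CPM in Pro and 266, 266 and 296 CPM in Sen. Its footprints amounted to 503, 462 and 481 CPM in Pro and 466, 299 and 447 CPM in Sen. The mRNA values did not overlap. The RPF ranges overlapped between Pro 2 and Sen 1 by a narrow margin, and shallow Sen 2 was the lowest. ITGAV mRNA rose 1.24-fold (log2 0.31, SE 0.08, edgeR adjusted p = 0.0017). The RPF change was -0.11 on the log2 scale (SE 0.16, adjusted p = 0.60), with a 95% interval from -0.43 to 0.21. Under a filter that asks for 10 counts in each library it was -0.25 and passed the test (adjusted p = 0.10).

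ITGB1 (chr10:33176201-33294720, minus strand), the shared beta subunit, was the most abundant of the 10 per coding length. Its mRNA levels were 2900, 2839 and 3146 CPM in Pro and 4230, 4444 and 4077 CPM in Sen. Its RPF levels were 2082, 3623 and 3755 CPM in Pro and 4077, 3094 and 3989 CPM in Sen. The mRNA values were separate, and in RPF the shallow library of each state was below both of the deeper ones. ITGB1 mRNA rose 1.44-fold (log2 0.52, SE 0.07, edgeR adjusted p = 2.7e-06). The RPF change was 0.21 on the log2 scale (SE 0.19, adjusted p = 0.37; 95% interval from -0.16 to 0.58). Without Sen 2 it was 0.32 and passed the test (adjusted p = 0.12), and without Pro 1 it was -0.01 (adjusted p = 0.96).

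ITGB5 (chr3:124480795-124620265, minus strand), a beta subunit that pairs with ITGAV, had the highest change of the 10 in both layers. Its mRNA levels were 185, 182 and 182 CPM in Pro and 709, 667.2 and 642 CPM in Sen. Its footprints amounted to 139, 99.4 and 83.5 CPM in Pro and 401, 211 and 385 CPM in Sen. The states were far apart in mRNA, and in RPF the nearest values were those of shallow Pro 1 and Sen 2, from 8 and 12 reads. The mRNA rose 3.68-fold (log2 1.88, SE 0.07, edgeR adjusted p = 1.7e-15) and the RPF 4.11-fold (log2 2.04, SE 0.18, adjusted p = 5.0e-16).

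ITGB3 (chr17:45331193-45391109, plus strand), the other dedicated partner of ITGAV in this list, changed less. Its mRNA levels were 86.2, 89.2 and 82.2 CPM in Pro and 124, 113 and 120 CPM in Sen. In RPF it had 122, 108 and 87.0 CPM in Pro and 150, 123 and 99.2 CPM in Sen. The mRNA values were separate and the RPF values overlapped. The mRNA rose 1.38-fold (log2 0.47, SE 0.07, edgeR adjusted p = 6.6e-06). The RPF change of 0.45 on the log2 scale (SE 0.19) passed the test (adjusted p = 0.045), but not on library totals without TMM factors (0.32, adjusted p = 0.17), without Pro 3 (0.25, adjusted p = 0.55) or without Sen 1 (0.11, adjusted p = 0.82). Another annotated protein-coding gene overlaps ITGB3 on the same strand.

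**Figure D2:**
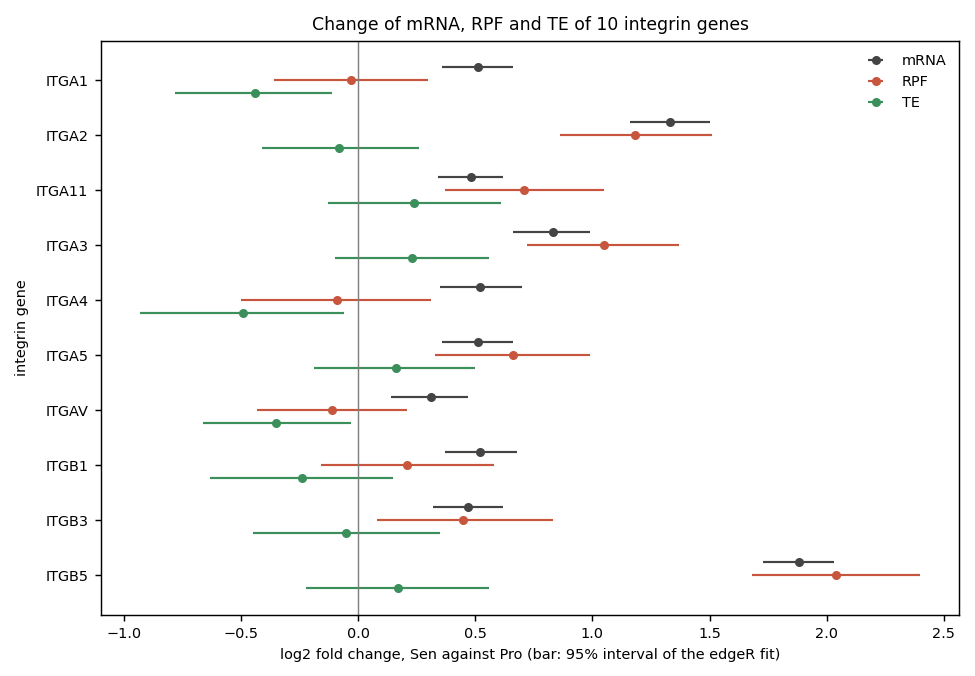
Log2 fold change of Sen against Pro for the 10 integrin genes in mRNA, RPF and TE, with 95% intervals of the edgeR fits. All mRNA intervals lie above 0, and the RPF intervals of ITGA1, ITGA4, ITGAV and ITGB1 span 0. The TE points of these 4 lie between -0.49 and -0.24, a sign that largely follows from that grouping.

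TE was tested as the interaction of library type and state over all 12 libraries, with the lysate as a block. ITGA1 was the 1 gene of the 10 that was called, and it was called lower. Over the 7473 genes tested, 10.0% were called, with 6.32% higher and 3.73% lower. The log2 ratio of RPF to mRNA for ITGA1 was -0.07, 1.07 and 1.11 in Pro 1 to 3 and 0.59, 0.14 and 0.54 in Sen 1 to 3. Shallow Pro 1 was the lowest of the 6 and the other Pro lysates were the highest. The TE change was -0.44 (SE 0.17, edgeR adjusted p = 0.12). It did not pass without Pro 2 (-0.38, adjusted p = 0.57), Pro 3 (-0.30, 0.69), Sen 1 (-0.51, 0.36), Sen 2 (-0.42, 0.17) or Sen 3 (-0.47, 0.37), and it passed without Pro 1 (-0.60, adjusted p = 0.010).

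The other genes not called in RPF had TE changes below 0. This sign largely follows from the grouping, since these genes were called higher in mRNA but not in RPF, and it is no further result. ITGA4 had log2 ratios of 0.37, 0.66 and 0.66 in Pro and 0.15, -0.68 and 0.15 in Sen, and ITGAV 1.33, 1.09 and 0.96 in Pro and 0.81, 0.21 and 0.60 in Sen. For both, every Sen lysate lay below every Pro lysate, as for 8.59% of all genes tested, with shallow Sen 2 the lowest. For ITGA11 every Sen lysate lay above every Pro lysate, as for 7.64% of all genes, with ratios of -0.43, -0.37 and -0.16 in Pro and -0.10, 0.34 and -0.07 in Sen. The TE change of ITGA4 was -0.49 (SE 0.22, edgeR adjusted p = 0.20) and that of ITGAV -0.35 (SE 0.16, adjusted p = 0.22), and neither passed the test. ITGB1 had a change of -0.24 (SE 0.20, adjusted p = 0.54). Without Pro 1, all 4 were called lower, at -0.59 for ITGA4 (adjusted p = 0.085), -0.38 for ITGAV (adjusted p = 0.12) and -0.49 for ITGB1 (adjusted p = 0.075). In that fit 8.32% of 7959 genes were called lower and 6.08% higher, and the median of all genes was -0.05. With any other single lysate left out, 0 of the 10 were called in TE.

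The 6 genes called in RPF had TE changes that did not pass the test. ITGA11 had 0.24 (SE 0.19), ITGA3 0.23 (SE 0.16), ITGB5 0.17 (SE 0.20), ITGA5 0.16 (SE 0.17), ITGB3 -0.05 (SE 0.20) and ITGA2 -0.08 (SE 0.17). For ITGB5 and ITGA2 the sign of the fitted change differed from that of the lysate means, which give each lysate the same weight, shallow ones included. The mean log2 ratio of ITGB5 was -0.77 ± 0.40 in Pro and -1.05 ± 0.48 in Sen (SD, n = 3), and that of ITGA2 1.14 ± 0.38 and 1.18 ± 0.03, so no direction is given for either. The intervals leave room for changes of moderate size, for example from -0.22 to 0.56 on the log2 scale for ITGB5 and from -0.41 to 0.26 for ITGA2.

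Levels of different subunits were compared per kb of coding length, which was 3.537 kb for ITGA1, 3.543 kb for ITGA2 and 2.397 kb for ITGB5. In Pro RPF, ITGB1 stood far above the others at 1317 ± 389 CPM per kb (SD, n = 3). ITGA5 followed at 172 ± 16.7 and ITGAV at 153 ± 6.64, whose ranges overlapped. ITGA3 (109 ± 16.0), ITGA1 (90.0 ± 40.2), ITGA2 (54.3 ± 17.4), ITGB5 (44.7 ± 11.9) and ITGB3 (44.7 ± 7.35) came next, each overlapping its neighbour, and ITGA11 (32.8 ± 3.81) and ITGA4 (23.3 ± 5.83) were the lowest.

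In Sen RPF, ITGB1 was at 1554 ± 227 CPM per kb and ITGA5 at 267 ± 50.4. ITGA3 (200 ± 39.7), ITGB5 (139 ± 43.9), ITGA2 (138 ± 13.4), ITGAV (129 ± 29.1) and ITGA1 (98.7 ± 17.5) followed, and each range overlapped that of the next. ITGA11 (60.5 ± 7.43) and ITGB3 (52.5 ± 10.8) also overlapped, and ITGA4 was the lowest at 21.3 ± 8.83. ITGAV thus ranked the third in Pro and the sixth in Sen, and ITGB5 the seventh and the fourth.

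RNA-seq reads of the CDS alone, on the same scale per kb, gave a different order. ITGB5 was the third in Pro at 99.9 ± 2.59 CPM per kb and the second in Sen at 363 ± 12.4, above ITGA5 at 323 ± 21.1. ITGA2 was the ninth in Pro at 18.4 ± 1.36 and the eighth in Sen at 46.0 ± 6.35. Its range overlapped that of ITGA4 in Pro and that of ITGB3 in Sen. ITGB1 was the highest in both states, at 1554 ± 63.4 and 2270 ± 95.4, and ITGA4 the lowest, at 16.8 ± 1.03 and 24.4 ± 1.61.

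**Figure D3:**
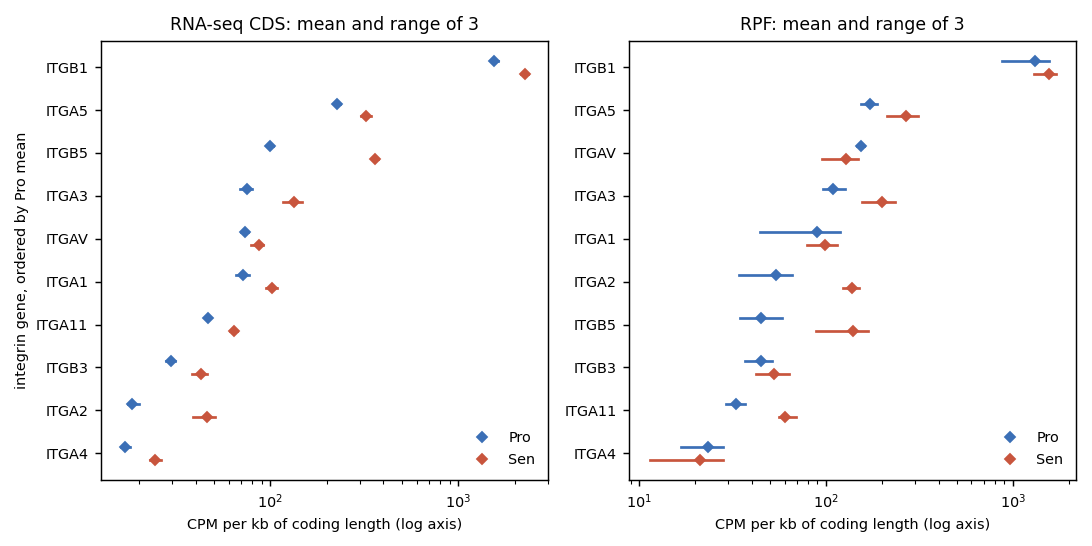
RNA-seq CDS reads (left) and RPF (right) of the 10 integrin genes in CPM per kb of coding length on log axes, with genes ordered by their Pro mean. Diamonds are means and lines the range of 3 libraries, Pro in blue and Sen in red. ITGB1 is the highest and ITGA4 the lowest in both panels, and ITGB5 moves from 44.7 to 139 in RPF.

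The balance between subunits differed between the states. Per coding length, ITGB5 amounted to 0.362, 0.283 and 0.228 of ITGAV in the RPF of Pro 1 to 3 and to 1.13, 0.926 and 1.13 in Sen 1 to 3. The same ratio was, for RNA-seq CDS reads, 1.40, 1.35 and 1.36 in Pro and 4.16, 4.65 and 3.79 in Sen. The states were separate in both layers, and the ratio was lower in RPF than in RNA-seq in each lysate. In the shallow libraries the RPF ratio rests on 8 and 29 reads of ITGB5 and ITGAV in Pro 1 and on 12 and 17 in Sen 2. ITGB3 amounted to 0.291 ± 0.0439 of ITGAV in Pro RPF and 0.424 ± 0.126 in Sen RPF, and these values overlapped.

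Among the collagen receptor subunits, the ratio of ITGA2 to ITGA1 in RPF was 0.777, 0.590 and 0.551 in Pro and 1.35, 1.56 and 1.33 in Sen. In the shallow libraries it rests on 7 and 9 reads of ITGA2 and ITGA1 in Pro 1 and on 25 and 16 in Sen 2. In RNA-seq CDS reads it was 0.265, 0.250 and 0.260 in Pro and 0.513, 0.378 and 0.466 in Sen. ITGA2 was therefore the lower of the pair in Pro RPF and the higher in Sen RPF, while it stayed the lower in RNA-seq.

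**Figure D4:**
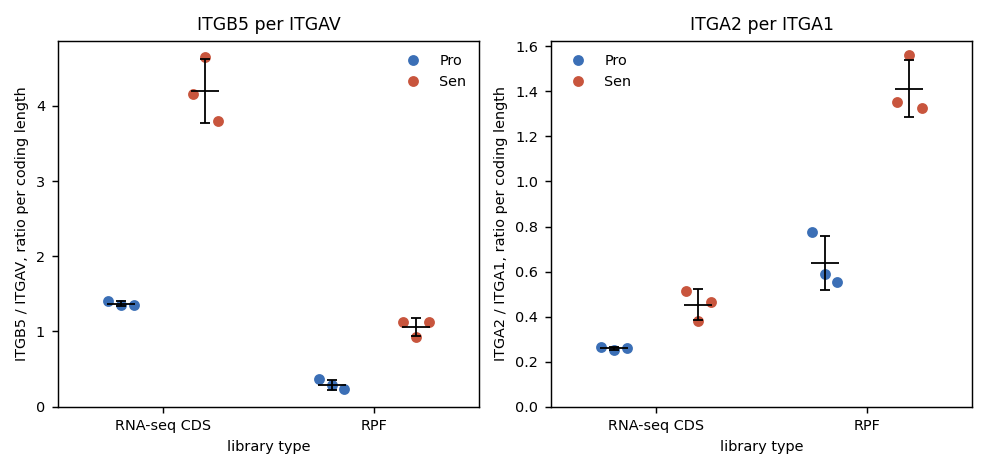
Ratio of ITGB5 to ITGAV (left) and of ITGA2 to ITGA1 (right) per coding length, 1 point per library, with mean and SD of 3 libraries in black. Sen values lie above Pro values in RNA-seq CDS reads and in RPF, and the ITGB5 ratio has a mean of 0.291 in Pro RPF and 1.06 in Sen RPF.

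Of the summed RPF of the 7 alpha subunits per coding length, ITGAV made up 24.4% ± 3.42 (SD, n = 3) in Pro and 14.0% ± 1.13 in Sen. ITGA2 made up 8.44% ± 2.06 and 15.2% ± 1.30. Neither share overlapped between the states. The share of ITGA5, the fibronectin receptor subunit, was 27.1% ± 0.153 in Pro and 29.1% ± 2.06 in Sen. It did not overlap either, by a narrow margin, with 27.3% in Pro 1 and 27.5% in Sen 3 the nearest values. The RPF shares of ITGA4 and ITGA11 were also separate, and those of ITGA1 and ITGA3 overlapped. In RNA-seq CDS reads, ITGA5 made up 42.8% ± 0.785 in Pro and 41.4% ± 0.313 in Sen, ITGAV 13.8% ± 0.0969 and 11.1% ± 0.309, and ITGA2 3.49% ± 0.120 and 5.89% ± 0.467. ITGB1 equalled 2.05 ± 0.446 times the alpha sum in Pro RPF and 1.70 ± 0.0340 times in Sen RPF, and its Pro and Sen values overlapped. The alpha sum holds only the 7 listed alpha subunits. It leaves out ITGA6, which had 26.3 ± 0.852 CPM per kb in Pro RPF and 41.8 ± 22.8 in Sen RPF. Shares of a sum move together, so that a higher share of one subunit lowers the others.

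**Figure D5:**
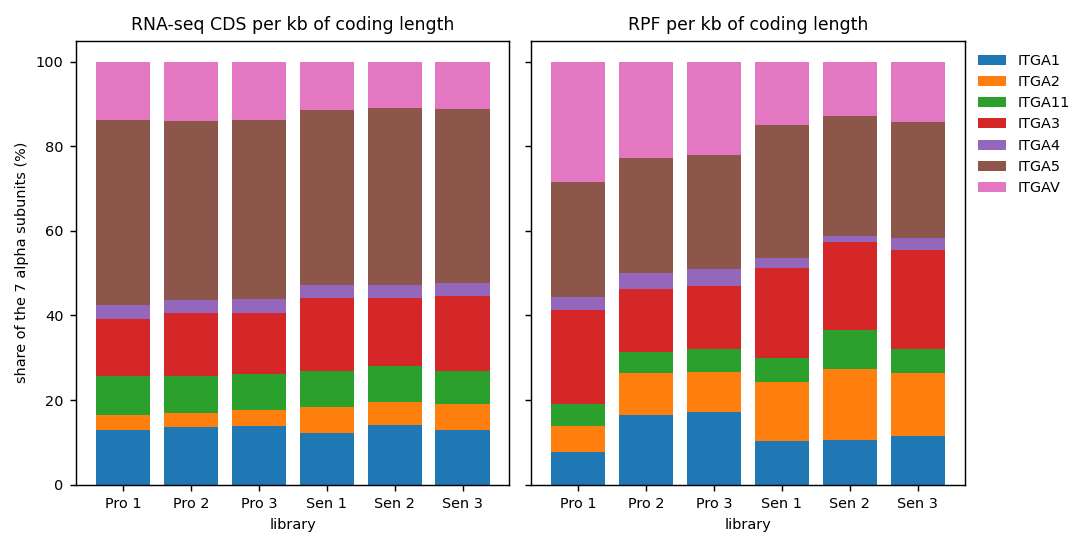
Share of each of the 7 alpha subunits in their sum per coding length, as stacked bars for each library, in RNA-seq CDS reads (left) and RPF (right). ITGAV takes 22.0% to 28.3% of RPF in Pro and 12.7% to 14.9% in Sen, and ITGA2 6.06% to 9.76% and 14.0% to 16.6% in these states.

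Footprints of the 10 genes outside the CDS were 4.76%, 0.92% and 0.62% of their UTR and CDS footprints in Pro 1 to 3 and 1.53%, 11.6% and 1.43% in Sen 1 to 3, highest in the shallow library of each state. In shallow Sen 2, the 3′ UTR held 22.5% of the 3′ UTR and CDS footprints of ITGA5 and 17.7% of those of ITGA3. The share of RNA-seq reads in the 3′ UTR overlapped between the states for all 10 genes, from 11.7% ± 1.62 in Pro and 12.1% ± 1.55 in Sen for ITGA1 to 49.8% ± 2.52 and 50.8% ± 4.95 for ITGA2. ITGB5 had 3, 6 and 9 footprints in its 5′ UTR in Pro 1 to 3 and 85, 2 and 5 in Sen 1 to 3, so that most came from Sen 1 alone. These were 27.3%, 8.22% and 6.02% of its 5′ UTR and CDS footprints in Pro and 12.4%, 14.3% and 2.46% in Sen, and the states overlapped. Over all genes, this share of 5′ UTR reads was 2.82% to 11.6% in Pro and 5.06% to 52.4% in Sen. For ITGAV it was 3.33%, 1.89% and 1.35% in Pro, from 1, 6 and 11 reads, and 0.57%, 0% and 0.43% in Sen, from 4, 0 and 1 reads.

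Of the 16 other integrin subunits, 5 passed the filter in mRNA, of which 3 were called higher and 2 lower, against 36.6% and 37.0% of all genes tested. The beta subunit ITGB8, another partner of ITGAV, fell from 26.7, 27.8 and 29.3 CPM in Pro mRNA to 2.77, 2.79 and 2.93 CPM in Sen (log2 -3.30, SE 0.13, edgeR adjusted p = 3.1e-15), and its RPF fell as well (log2 -2.49, SE 0.48, adjusted p = 1.3e-05). The ITGB8 RPF levels overlapped, with 0, 23.8 and 27.4 CPM in Pro and 4.02, 17.6 and 3.89 CPM in Sen, from 0 to 46 reads per library. ITGA6, a laminin receptor subunit, rose from 56.3, 55.4 and 59.5 CPM to 166, 158 and 166 CPM in mRNA (log2 1.52, SE 0.07, adjusted p = 7.4e-14) and by 1.03 in RPF (SE 0.19, adjusted p = 4.5e-06). The ITGA6 RPF levels were 86.8, 81.6 and 85.9 CPM in Pro and 195, 52.7 and 156 CPM in Sen, where shallow Sen 2, with 3 reads, lay below all Pro libraries. The 3 further genes called in mRNA are named after their values were seen. ITGA8 rose from 0.186 to 0.513 CPM in Pro to 14.5 to 16.5 CPM in Sen, ITGAE was slightly higher (log2 0.29, SE 0.11, adjusted p = 0.027) and ITGA7 lower (log2 -0.55, SE 0.16, adjusted p = 0.0040). The 11 others, mostly subunits of leukocytes, platelets and epithelia, did not pass the filter.

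Genes for integrin ligands moved both ways. Of 32 tested, 18 were called higher and 10 lower in mRNA, and 11 higher and 11 lower in RPF, with a median mRNA change of 0.24 on the log2 scale against -0.01 over all genes. Shares over all genes tested were 36.6% higher and 37.0% lower in mRNA, and 27.5% and 26.9% in RPF. TGM2, a crosslinking enzyme that binds fibronectin and integrins, rose by 2.22 in mRNA (SE 0.08, edgeR adjusted p = 1.6e-15) and by 2.61 in RPF (SE 0.19, adjusted p = 2.7e-20). EDIL3, an RGD protein that binds ITGAV receptors, rose by 1.67 in mRNA (SE 0.07, adjusted p = 2.4e-14) and CCN2, a matricellular protein, by 1.49 (SE 0.09, adjusted p = 7.6e-12). POSTN, also a ligand of ITGAV receptors, fell in mRNA (log2 -5.80, SE 0.09, adjusted p = 1.4e-21) and in RPF (log2 -4.91, SE 0.25, adjusted p = 1.0e-28). The laminin chain LAMA2 fell in mRNA (log2 -1.61, SE 0.16, adjusted p = 1.2e-08), and so did VCAM1, the ligand of the ITGA4 receptor (log2 -1.54, SE 0.09, adjusted p = 1.6e-12).

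Among the activators and adhesion adaptors that link integrins to actin, 15 of 36 tested were called higher and 10 lower in mRNA, and 12 of 33 higher and 3 lower in RPF. Among all genes tested, 36.6% were called higher and 37.0% lower in mRNA, and 27.5% and 26.9% in RPF. The median mRNA change of the adaptors was 0.01 on the log2 scale. LPXN, a relative of paxillin, rose by 1.72 in mRNA (SE 0.13, edgeR adjusted p = 1.5e-10), LIMS2 by 1.04 (SE 0.08, adjusted p = 4.0e-10) and RSU1 by 0.71 (SE 0.07, adjusted p = 1.5e-08). FERMT2, the kindlin of fibroblasts, fell in mRNA (log2 -0.45, SE 0.07, adjusted p = 6.6e-06) and in RPF (log2 -0.75, SE 0.16, adjusted p = 0.00012). TNS2, a tensin, fell in mRNA (log2 -0.84, SE 0.09, adjusted p = 2.3e-08), as did TGFB1I1 (log2 -0.49, SE 0.07, adjusted p = 3.6e-06).

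Of 13 tested genes for inactivation and trafficking of integrins, 12 were called higher and 0 lower in mRNA, and 3 higher and 0 lower in RPF. For all genes tested, the shares were 36.6% higher and 37.0% lower in mRNA, and 27.5% and 26.9% in RPF. The median change of the 13 genes was 0.44 on the log2 scale in mRNA and 0.21 in RPF. Their footprints were as few as 96 over all libraries, for SHARPIN, whose SE was 0.36 in RPF and 0.08 in mRNA. The part of read depth in the lower number of RPF calls was not tested. The endocytic adaptor NUMB rose by 0.90 in mRNA (SE 0.07, edgeR adjusted p = 2.1e-10), SHARPIN, which holds integrins inactive, by 0.60 (SE 0.08, adjusted p = 1.3e-06), and the small GTPase ARF6 by 0.28 (SE 0.08, adjusted p = 0.0026). Of 16 membrane partners of integrins, 12 were called higher and 3 lower in mRNA, and 11 higher and 2 lower in RPF, with medians of 0.41 and 0.69. The tetraspanin CD9 rose by 1.44 in mRNA (SE 0.08, adjusted p = 1.3e-12), CD82 by 1.04 (SE 0.08, adjusted p = 9.7e-11) and TSPAN4 by 0.86 (SE 0.07, adjusted p = 3.6e-10). The heparan sulfate proteoglycan SDC1 fell in mRNA (log2 -1.68, SE 0.11, adjusted p = 1.4e-11), as did SLC3A2, which binds beta subunits (log2 -0.68, SE 0.07, adjusted p = 1.7e-08). In TE, 6 of the 16 membrane partners were called higher and 0 lower, with edgeR adjusted p from 0.0036 to 0.14 for the 6. Of the integrin ligands, 3 of 32 tested were called higher and 2 lower in TE. For the adaptors these were 3 and 0 of 33, and for inactivation and trafficking 1 and 1 of 13. Over all genes tested, 6.32% were called higher and 3.73% lower. The number of TE calls over all genes varied with the processing, as given below.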

How the data were processed

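IMR90 Ribo-seq and RNA-seq tables from 3 Pro and 3 Sen lysates were used. The values deposited by the authors are expected counts, reads per gene and transcript region with fractions for some reads and no scaling to depth. The tests had been planned for plain counts, so each gene's sum over regions was rounded to a whole number. The submitters' processing notes name cutadapt 1.18, Bowtie 1.0.1, SAMtools 1.8 and DESeq2 1.22.2. Genome build, annotation, strand rule and treatment of reads with several placements are not given in the sources used here. Groups and replicate numbers came from the sample labels.

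Genes with at least 1 CDS read in some library and kept by filterByExpr were tested in edgeR 4.0.16 (R 4.3.3) with the quasi-likelihood test, TMM factors and Benjamini-Hochberg adjustment, at a threshold of 0.15. mRNA and RPF were each fitted on 6 libraries, and TE on 12 with the lysate as a block, factors being taken within each library type. The TE of a lysate was computed after adding 0.5 to each count. SE was obtained from the coefficient and its F value. The steps were tested on simulated data. No 2 replicates agreed within sampling noise. Alternatives were RLE factors, library totals, DESeq2 1.42.0, other filters and thresholds, RNA-seq CDS reads alone, lysates left out, and blocks.

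Gene positions and coding lengths came from the GENCODE v44lift37 annotation of GRCh37, which may differ from the authors' build. Coding lengths had been planned from RefSeq proteins, and the principal (MANE Select) coding sequences were used instead. Promoter windows came from RefSeq on GRCh38.p14, where 12 windows matched 8 of the 10 genes. All 10 integrin genes are named, and of every other list at most the 3 highest and 3 lowest mRNA changes among genes called in both layers in the same direction, of which not all are given. ITGA7, ITGA8 and ITGAE fall outside this rule and were named after their values were seen. Members, lists, motifs and ratios were chosen with earlier results of these data known.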

Additional observations from a re-analysis of the deposited data

Results flagged for a closer look

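Footprints in the 3′ UTR, which entered no comparison, were found for ITGA11 in every Sen library and in 0 Pro libraries. They numbered 5, 1 and 2 reads in Sen 1 to 3, or 1.64%, 6.67% and 1.90% of its 3′ UTR and CDS footprints, against 0 of 304.5 in Pro, which allows a share of up to 0.985% over the group, counting error only. Over all genes the same share was 1.44% to 13.8% in Pro and 3.69% to 26.7% in Sen, highest in the shallow library of each state. The difference between the states was not tested, and 8 reads in all are behind it.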

How the results depend on the processing

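All 10 integrin genes stayed called and higher in mRNA under every one of the alternatives run, with ITGAV lowest at 0.20 on the log2 scale on library totals. Library totals without TMM factors moved the median change of all genes to -0.11 in mRNA and -0.14 in RPF, and the integrin changes moved with it, for example ITGB5 mRNA from 1.88 to 1.77. The share of higher calls among all RPF calls was 50.5% and 39.1% on library totals, and among TE calls 62.8%, 52.4% with RLE factors and 44.1% on library totals. Genes called in RPF numbered 1164 by DESeq2, 610 among genes with 10 counts in every library and 2336 with the replicate block, against 4088, and 2681 to 4556 with 1 library left out. Of the 10 integrin genes, 3 were called in RPF with 10 counts in every library, where 4 could be tested, and 5 to 7 with 1 library left out. Genes called in TE numbered 259 at a threshold of 0.05, 76 by DESeq2, 428 with a filter of 1 read, 236 with 10 counts in every library, 1183 without lysates Pro 1 and Sen 2, 144 with the replicate block and 1339 with no lysate block, against 751, and 150 to 1146 with 1 lysate left out. Integrin genes called in TE numbered 0 at a threshold of 0.05, by DESeq2, with a filter of 1 read and with the replicate block, 3 with RLE factors, on library totals, without lysates Pro 1 and Sen 2 and with no lysate block, 2 with RNA-seq CDS reads, and 0 to 4 with 1 lysate left out. At an unadjusted p under 0.05, edgeR gave 1378 genes in TE. Whether the replicate numbers pair the samples could not be settled. Deviations of same-numbered libraries from their group means correlated at -0.07 to 0.09 in mRNA and 0.01 to 0.04 in RPF. Not every library correlated best with its own number. By the same measure, mRNA and RPF of the same lysate, which are paired by design, correlated at -0.05 to 0.07. The measure therefore cannot tell paired from unpaired samples here.

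Changes near 0 crossed it. ITGA1 RPF was 0.028 by DESeq2 and 0.088 with the replicate block. With 1 library left out, RPF changes ranged from -0.17 to 0.19 for ITGA1, from -0.170 to 0.059 for ITGA4 (above 0 without Pro 3 or Sen 1) and from -0.010 to 0.370 for ITGB1 (below 0 without Pro 1), and TE changes from -0.188 to 0.0022 for ITGA2 (above 0 without Pro 2), from -0.365 to 0.102 for ITGB3 (above 0 without Sen 3) and from -0.047 to 0.229 for ITGB5 (below 0 without Pro 3). ITGB3 TE was 0.049 with no lysate block. ITGB3 RPF did not pass by DESeq2 (0.31, adjusted p = 0.72) or with the replicate block (0.21, adjusted p = 0.65). The cause of these differences was not tested. Depth limits RPF and TE in Pro 1 and Sen 2, where an integrin gene had from 2 to 176 reads, and counting limits cover counting error only.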
